A study of Homo sapiens with 15 samples.

Results

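The genes described here are the matrix metalloproteinases (MMP), the ADAM and ADAMTS proteases, the cathepsins (CTS) and the tissue inhibitors of metalloproteinases (TIMP) of HCC1954 cells. They were found by name in deposited tables of 19845 gene names. The tables held 74 names of these families, and the 44 with a normalized count of at least 1 in 3 or more of the 15 libraries are the members described below. They comprise 11 of 20 MMP names, 11 of 19 ADAM names, 7 of 17 ADAMTS names, 12 of 14 CTS names and 3 of 4 TIMP names. TIMP3, ADAMTS1 and ADAMTS14 stood just inside this minimum, with exactly 3 libraries at 1 or more. MMP10 and ADAMTS13 stood just outside it with 2 libraries each. The highest MMP10 value was 7.53 and the highest ADAMTS13 value was 2.12. The remaining names, TIMP4 among them with a highest value of 0.139, reached 1 in a single library or in none.

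HCC1954 is an established human breast cancer line that carries extra copies of ERBB2, the gene of the HER2 receptor. RNA was sequenced from metachronous brain metastasis cells (M-BM, 4 libraries), brain-tropic latent or residual cells (Lat, 4), synchronous brain metastasis cells (S-BM, 4) and the parental line (Pa, 3), all labelled HER2+. Every group was grown overnight in a medium called R3F before extraction, so the values are of cultured cells and not of cells inside a brain. The labels name no other treatment, no allele and no host, and leave unsaid whether the libraries within a group are separate cultures, animals or clones. The p-values therefore measure only the spread between these libraries, which may be technical.

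As background, secreted MMPs cleave collagens, laminins and other proteins of the extracellular matrix, and membrane-type MMPs do so at the cell surface. ADAM proteases of the catalytic kind cut the outer parts of membrane proteins such as growth factor precursors and Notch receptors, a step called shedding. ADAMTS proteases are secreted relatives that cleave proteoglycans and procollagens. Cathepsins are mostly proteases of the lysosome, some of which are also secreted, and TIMPs bind and block MMPs and several ADAM and ADAMTS enzymes. Many of these enzymes are made as inactive precursors, so a transcript level is not an activity.

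The libraries held 13253870 to 21843860 reads, recovered from the deposited normalized counts. A floor of 3 reads was worth 0.136 to 0.225 normalized counts and covers counting error only. Some libraries stood apart within their group. S-BM 3 differed from S-BM 4 by 3.4 times sampling noise, against 33.6 to 67.7 times for the other S-BM pairs, and this pair, written 3/4 below, had ERBB2 values of 353 and 367. ERBB2 lay between 2801 and 4184 in M-BM, between 2836 and 3775 in Lat, at 4109 in S-BM 1 and 4642 in S-BM 2, and between 4881 and 4929 in Pa. Lat 3 differed from the other Lat libraries by 36.7 to 42.1 times sampling noise, against 3.88 to 13.3 times among those. All 7 epithelial and HER2 markers were present in every library. Of the 7 macrophage markers in the tables, 5 (PTPRC, CD14, AIF1, FCER1G and CX3CR1) stayed under 1 in every library, macrophages being cells that make CTSS and other cathepsins in quantity. CD68 and CSF1R were the exceptions, with means of 12.7 and 7.63 in M-BM, 15.04 and 12.2 in Lat, 16.4 and 7.78 in S-BM, and 15.8 and 3.12 in Pa. The summed macrophage list ran from 16.7 to 22.0 in M-BM, 22.0 to 39.2 in Lat, 11.7 to 29.6 in S-BM and 17.6 to 21.2 in Pa. Of the 5 fibroblast markers, 4 stayed under 1 in every library, COL1A1 being the exception, and the list summed to 5.99 to 11.2 in M-BM, 6.15 to 21.5 in Lat, 3.25 to 6.52 in S-BM and 7.21 to 10.1 in Pa. Of the 4 astrocyte markers in the tables, 3 stayed under 1 in every library, GFAP among them, and the list summed to 32.2 to 79.8 in M-BM, 36.7 to 49.2 in Lat, 173 to 325 in S-BM and 313 to 426 in Pa, nearly all of it SLC1A3. The 4 endothelial markers in the tables summed to 4.77 to 11.25 in M-BM, 6.97 to 7.92 in Lat, 14.3 to 27.7 in S-BM and 20.4 to 28.4 in Pa. Both lists were lower in every M-BM and Lat library than in every S-BM library, as were MMP7, CTSS and CTSD below, and their part in those results was not tested. The 4 neuron and oligodendrocyte markers in the tables summed to 99.5 to 152 in M-BM, 94.03 to 126 in Lat, 75.9 to 108 in S-BM and 104 to 110.1 in Pa. Nearly all of this was MBP, with means of 114 in M-BM, 101 in Lat, 94.05 in S-BM and 106 in Pa. SNAP25 and MOG stayed under 1 in every library. In bulk samples such as these, fewer cells that express a gene and less RNA of it per cell cannot be told apart.

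**Figure D1:**
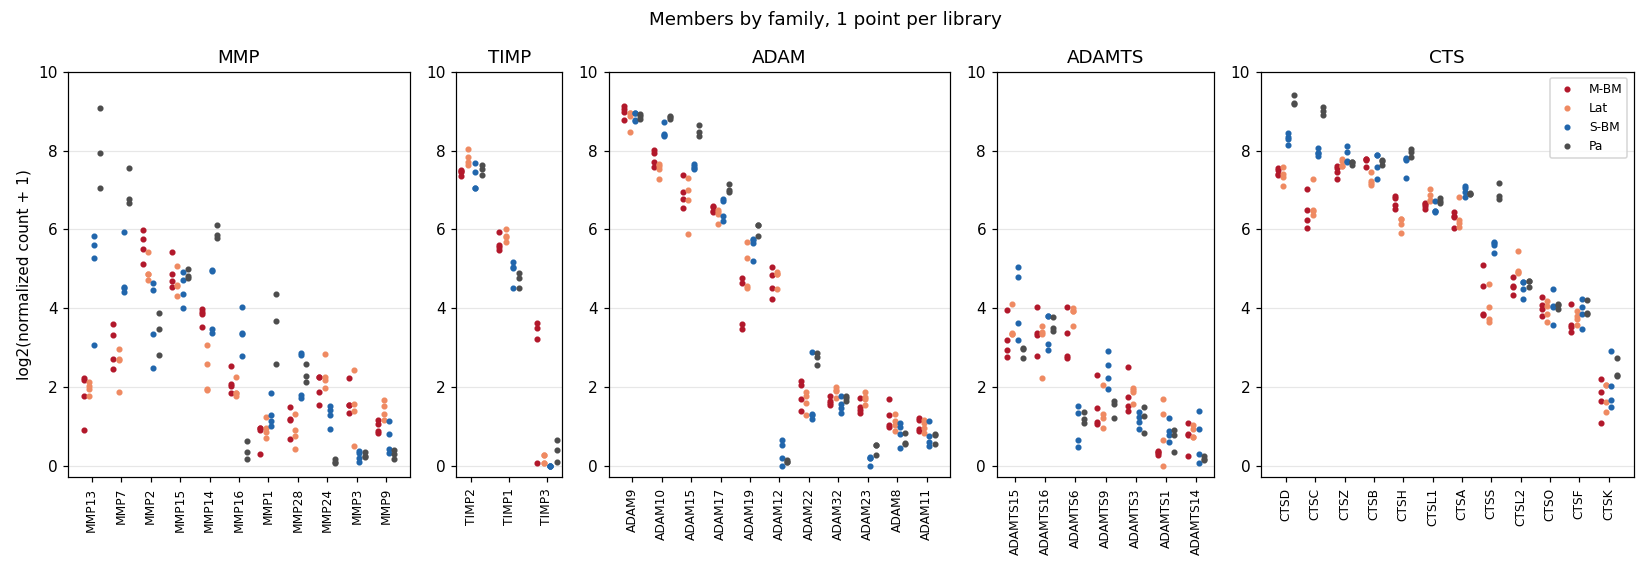
Each point is 1 library, with the member on the horizontal axis, ordered within its family by mean, and log2(normalized count + 1) as deposited on the vertical axis. ADAM12 holds a count between 17.8 and 31.8 in every M-BM and Lat library and of at most 0.582 in S-BM and Pa; heights of different genes are not scaled for gene length.

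Lysosomal cathepsins and ADAM9 were among the most abundant members in M-BM, Lat and S-BM, and in Pa MMP7, ADAM15 and MMP13 also stood above ADAM9. Levels of different genes were compared per kilobase of merged exon length. On that scale CTSZ, a carboxypeptidase cathepsin, was first in M-BM, Lat and S-BM, with mean levels of 119 normalized counts per kilobase in M-BM, 138 in Lat, 159 in S-BM and 137 in Pa. CTSD, the main aspartic protease of the lysosome, was first in Pa, at 82.9 per kilobase in M-BM, 77.1 in Lat, 149 in S-BM and 291 in Pa. ADAM9, a membrane sheddase, stood at 85.6 per kilobase in M-BM, 76.4 in Lat, 78.7 in S-BM and 78.7 in Pa. Some members held very different ranks among the 44 from group to group. MMP7 was at rank 16 in M-BM, 20 in Lat, 11 in S-BM and 3 in Pa, and MMP13 was at rank 30 in M-BM, 29 in Lat, 15 in S-BM and 6 in Pa. ADAM12 was at rank 22 in M-BM, 22 in Lat, 42 in S-BM and 44 in Pa.

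Tests covered M-BM, Lat and S-BM, which share a table; Pa stands in a table normalized separately and is given as levels. Genes that reached a value of 10 in 4 or more of these 12 libraries were tested with limma on log2(value + 1), and an adjusted p (Benjamini-Hochberg over 9646 genes) under 0.05 counted as a call. Of the 44 members, 26 passed this filter, and a member that is high in only 1 group could pass it through that group alone. Fold changes are of value + 1, which understates the change of low genes. The contrasts Lat minus S-BM and M-BM minus S-BM share the S-BM libraries, so their values are given side by side and are not independent of each other.

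In Lat against S-BM, 17 of the 26 tested members were called, 7 higher and 10 lower, where 59.7% of all tested genes were called. In M-BM against S-BM, 15 of 26 were called, 4 higher and 11 lower, where 52.7% of all genes were. Both shares are near those of all genes, so the number of members called is no result about these families. By direction, 30.2% of all genes were higher and 29.4% lower in Lat, and 26.9% were higher and 25.8% lower in M-BM. The median log2 fold change of the tested members was −0.24 in Lat against S-BM and −0.14 in M-BM against S-BM, beside medians of 0.01 and 0.01 over all genes. The groups did not overlap for 14 of 26 members in Lat against S-BM (54.5% of all genes) and for 14 of 26 in M-BM against S-BM (46.2% of all genes). Leaving out S-BM 3 with S-BM 4, the calls came to 15 in Lat (53% of all genes) and 12 in M-BM (45.7% of all genes).

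**Figure D2:**
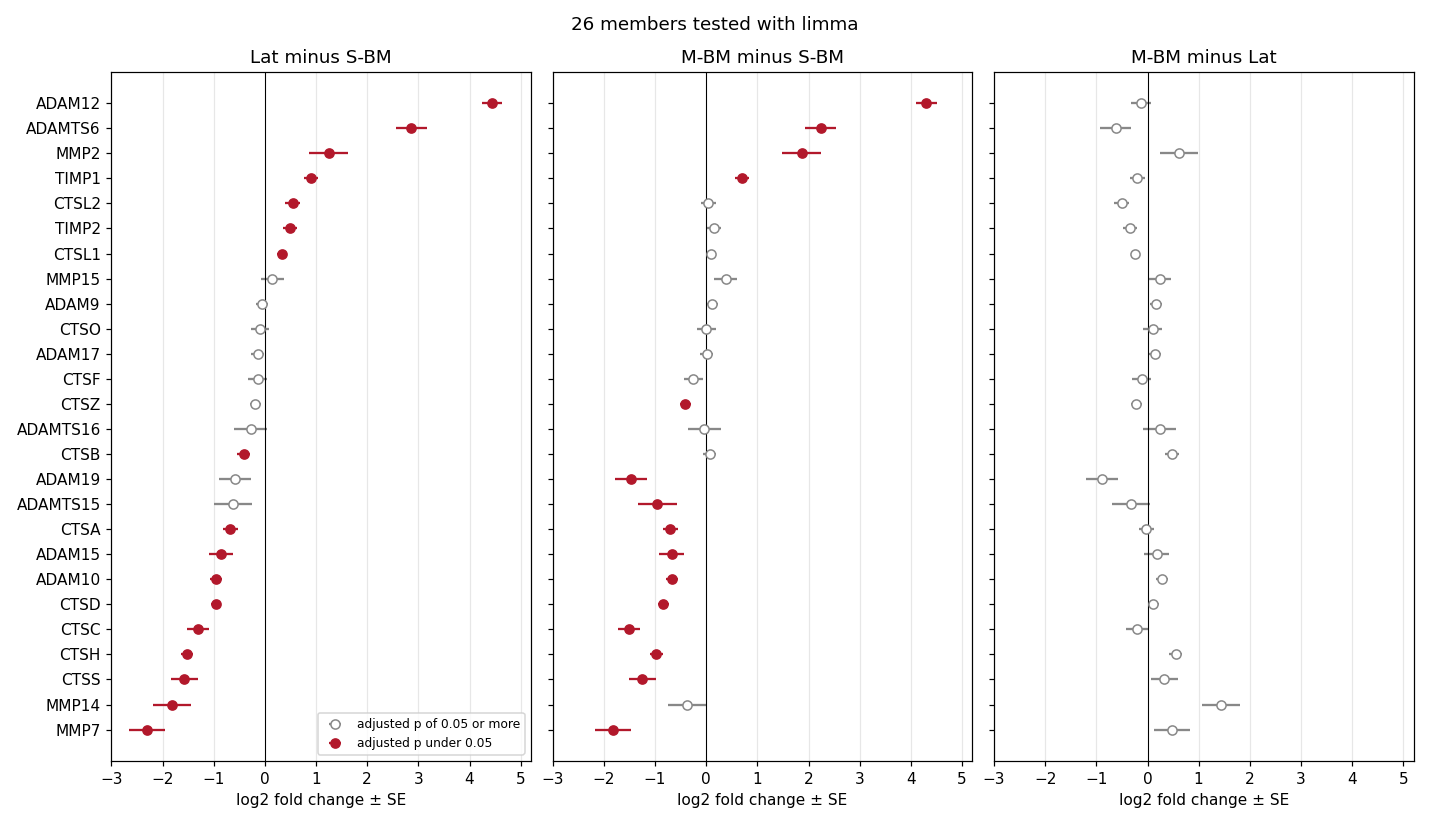
Points are log2 fold changes of the 26 tested members with bars of 1 SE, on one horizontal scale for the 3 contrasts, and filled points have a limma adjusted p under 0.05. ADAM12 lies above 4 in the Lat and M-BM contrasts with S-BM, most called cathepsins lie below 0, and the contrast of M-BM with Lat has no filled point.

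Among the MMPs, MMP2 rose and MMP7 fell in M-BM and in Lat relative to S-BM, and MMP14 fell in Lat. MMP7, or matrilysin, is a small secreted MMP made by epithelial cells. It had 11.2, 5.56, 4.48 and 8.99 normalized counts in M-BM 1 to 4, 5.39, 5.48, 2.64 and 6.76 in Lat 1 to 4, and 21.9, 59.8, 22.3 and 20.4 in S-BM 1 to 4. Every M-BM and Lat library lay below every S-BM library, and S-BM 2 stood far above the other 3. The log2 fold change was −2.30 ± 0.35 in Lat (SE, limma adjusted p = 7.85e-05) and −1.83 ± 0.35 in M-BM (adjusted p = 6.73e-04).

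MMP2, or gelatinase A, cleaves gelatin and type IV collagen. Its values were 33.6, 52.7, 62.2 and 44.2 in M-BM, 25.4, 28.1, 28.4 and 41.6 in Lat and 4.56, 9.06, 23.7 and 20.9 in S-BM. No M-BM or Lat library overlapped S-BM, where S-BM 1 and S-BM 2 were low and S-BM 3 and S-BM 4 close to Lat. The log2 fold change was 1.25 ± 0.38 in Lat (limma adjusted p = 0.0110) and 1.86 ± 0.38 in M-BM (adjusted p = 0.00101). Without the S-BM pair 3/4 it was 2.07 in Lat and 2.68 in M-BM, and without S-BM 1 it was 0.83 in Lat.

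MMP14, the membrane-type enzyme that activates the MMP2 precursor at the cell surface, had 13.4, 13.9, 14.9 and 10.6 in M-BM, 2.82, 2.77, 5.02 and 7.39 in Lat and 10.1, 9.41, 29.7 and 30.5 in S-BM. All Lat libraries were below S-BM, and the S-BM libraries themselves formed a low pair (1 and 2) and a high pair (3 and 4). MMP14 fell in Lat, with a log2 fold change of −1.81 ± 0.37 (limma adjusted p = 7.58e-04), which was −1.05 without the S-BM pair 3/4 (adjusted p = 0.0112). In M-BM the difference from S-BM was −0.38 ± 0.37 (adjusted p = 0.406), and its sign turned without the S-BM pair 3/4, to 0.39 (adjusted p = 0.302). Those 2 libraries also had the low ERBB2 values given above; the part of that in the MMP14 values was not tested. MMP15, another membrane-type MMP, was not called, with means of 29.2 ± 8.88 in M-BM, 24.3 ± 5.92 in Lat and 22.2 ± 6.16 in S-BM (SD, n = 4 each).

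MMP13, a collagenase, missed the filter because only 3 libraries reached 10. Its values were 0.886, 2.39, 3.698 and 3.52 in M-BM, 2.41, 3.05, 3.36 and 2.86 in Lat and 7.29, 37.5, 55.6 and 47.7 in S-BM. Every M-BM and Lat library lay below every S-BM library, and S-BM 1 was the lowest of its group by a wide gap. A second fit with the filter at a value of 1, in the same number of libraries, tested 41 members among 12855 genes. That fit called 27 members in Lat against S-BM (57.9% of all genes) and 24 in M-BM against S-BM (50.9%), again near the share of all genes. In it the log2 fold change of MMP13 was −2.97 ± 0.48 in Lat (limma adjusted p = 1.38e-04) and −3.17 ± 0.48 in M-BM (adjusted p = 1.27e-04). Without S-BM 1 these were −3.60 and −3.79, and without the S-BM pair 3/4 they were −2.19 and −2.39.

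The other low MMPs were tested in the same second fit. MMP16, a membrane-type MMP first described in brain and placenta, had 3.2005, 2.62, 3.07 and 4.76 in M-BM, 2.62, 2.603, 2.38 and 3.77 in Lat and 5.87, 15.3, 9.15 and 9.25 in S-BM, and fell in Lat (−1.45 ± 0.23, limma adjusted p = 1.28e-04) and in M-BM (−1.26 ± 0.23, adjusted p = 5.35e-04). MMP28, or epilysin, an MMP of skin and other epithelia, had 1.82, 0.587, 1.27 and 1.24 in M-BM, 0.873, 0.332, 0.673 and 1.46 in Lat and 2.45, 2.28, 6.22 and 6.05 in S-BM, with the S-BM pair 3 and 4 at the top. It fell in Lat (−1.45 ± 0.29, adjusted p = 7.04e-04) and in M-BM (−1.17 ± 0.29, adjusted p = 0.00413); without the S-BM pair 3/4 the adjusted p in M-BM was 0.0746.

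A few low MMPs went the other way. MMP3, or stromelysin 1, had 3.64, 1.898, 1.898 and 1.52 in M-BM, 1.95, 1.61, 4.35 and 0.418 in Lat and 0.285, 0.253, 0.150 and 0.0582 in S-BM, and rose in Lat (1.22 ± 0.31, limma adjusted p = 0.00421) and M-BM (1.41 ± 0.31, adjusted p = 0.00201). Its S-BM values amount to 5, 5, 2 and 1 reads, and Lat 4, at 6 reads, was near them. MMP3 met the filter of 1 through M-BM and Lat alone, where it was high, so its calls are no support. MMP24, a membrane-type MMP of the nervous system, ran from 1.903 to 3.79 in M-BM, 2.93 to 6.16 in Lat and 0.911 to 1.86 in S-BM, and rose in Lat (1.03, adjusted p = 0.00111) and in M-BM (0.70, adjusted p = 0.0158, 0.0520 without M-BM 3). MMP9, or gelatinase B, stayed at 0.768 to 1.23 in M-BM, 1.22 to 2.17 in Lat and 0.253 to 1.1997 in S-BM; it rose in Lat (0.73, adjusted p = 0.00490) and was not called in M-BM (adjusted p = 0.200, or 0.0249 without the S-BM pair 3/4). MMP9 met the filter of 1 through Lat, where it was high, so its Lat call is no support. MMP1, the interstitial collagenase, ran from 0.226 to 0.951 in M-BM, 0.628 to 1.35 in Lat and 1.03 to 2.58 in S-BM. MMP1 met that filter through S-BM, where it was high, with Lat 3 the only other library at 1 or more. It was called lower in M-BM (−0.54, adjusted p = 0.0437), a call that held in 9 of 20 alternatives (adjusted p 0.0176 to 0.136) and ended without Lat 1, Lat 2, M-BM 2, M-BM 3, S-BM 2 or S-BM 4, and without the S-BM pair 3/4 together. It ended as well by DESeq2 (adjusted p = 0.0550), with the replicate numbers as a block (0.0718), with a pseudocount of 5 (0.0530) and with no filter (0.0504).

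**Figure D3:**
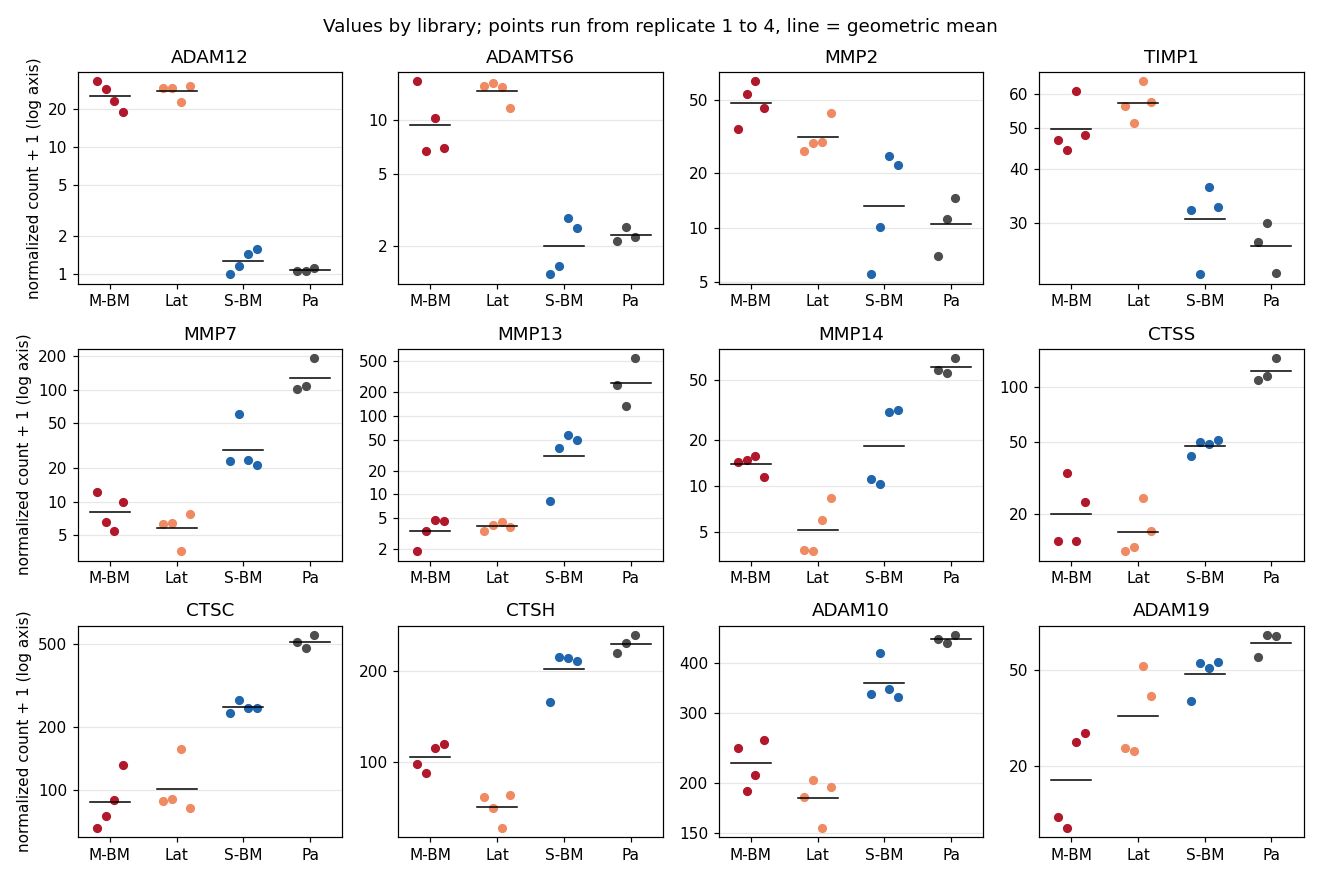
Each panel is a member, with the deposited normalized count + 1 on a log axis, 1 point per library in the order of the replicate numbers, and a line at the geometric mean. ADAM12, ADAMTS6, MMP2 and TIMP1 are higher in every M-BM and Lat library than in S-BM, MMP7, MMP13, CTSS, CTSC, CTSH and ADAM10 are lower, and S-BM 3 and S-BM 4 stand above S-BM 1 and S-BM 2 for MMP2 and MMP14.

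MMP7, MMP1, MMP3 and MMP13 are neighbours. They belong to the MMP gene cluster on the long arm of chromosome 11, at chr11:102520508-102530747, chr11:102789919-102798160, chr11:102835801-102843609 and chr11:102942995-102955732 in the RefSeq table of GRCh38.p14. The tables also list MMP20, MMP8, MMP10 and MMP12 of this cluster, none of which was a member. Across the groups the 4 expressed neighbours differed: MMP7 and MMP13 fell in Lat and M-BM against S-BM, and MMP3 rose, as given above.

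The promoter of MMP7 is printed because this gene had the largest fall among the 26 members tested at the filter of 10. The calls of that fall are no support, as stated above. The sequence holds the 250 bases before the RefSeq start of MMP7 (GRCh38.p14, minus strand, chr11:102530748-102530997), with matches to the AP-1 motif TGANTCA and to the TATA box TATAAA in capitals.
MMP7: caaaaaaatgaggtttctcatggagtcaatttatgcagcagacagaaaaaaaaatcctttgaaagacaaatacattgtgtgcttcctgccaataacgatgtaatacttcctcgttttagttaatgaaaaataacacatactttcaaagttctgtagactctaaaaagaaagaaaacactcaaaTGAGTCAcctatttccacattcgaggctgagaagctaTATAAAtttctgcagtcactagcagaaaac
The AP-1 match begins 67 bases and the TATA box 30 bases before the start. Both strands were searched. TGANTCA was found in 6.57% of 35116 RefSeq promoter windows of the same length, and TATAAA in 10.7%. Of the 25 members with an entry in that table, MMP7 was the one holding either motif. Members without an entry were not searched, so the pair of motifs is not shown to be particular to MMP7 among all members. Such a match is a description of the letters and not evidence of binding.

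Among ADAM proteases, ADAM12 rose and ADAM10 and ADAM15 fell in Lat and M-BM relative to S-BM, and ADAM19 fell in M-BM. In Lat 1 of the 6 tested ADAM genes rose and 2 fell, and in M-BM 1 rose and 3 fell. Of all tested genes, 30.2% were higher and 29.4% lower in Lat, and 26.9% were higher and 25.8% lower in M-BM. ADAM12, or meltrin alpha, is a sheddase of HB-EGF that is also made by fusing muscle and placental cells. It had 31.8, 27.5, 21.9 and 17.8 in M-BM, 28.2, 28.1, 21.6 and 29.01 in Lat and 0, 0.152, 0.450 and 0.582 in S-BM. The S-BM values amount to 0, 3, 6 and 10 reads, against 375 to 646 reads in M-BM and 416 to 550 in Lat. ADAM12 met the filter through M-BM and Lat alone, the groups where it was high, so its calls at that filter are no support. The log2 fold change was 4.43 ± 0.20 in Lat (limma adjusted p = 5.12e-09) and 4.30 ± 0.20 in M-BM (adjusted p = 6.96e-09). Its size ran from 2.58 to 6.56 in Lat and 2.47 to 6.43 in M-BM over the alternatives, all of which called it; the low ends came with a pseudocount of 5 and the high ends from DESeq2.

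ADAM10, the main sheddase of Notch and E-cadherin, had 244, 190.3, 209 and 256 in M-BM, 184, 203, 154 and 195 in Lat and 334, 424, 343 and 329 in S-BM. All M-BM and Lat libraries were below S-BM, where S-BM 2 was well above the others, and M-BM overlapped Lat. It fell, with a log2 fold change of −0.95 ± 0.12 in Lat (limma adjusted p = 1.92e-05) and −0.67 ± 0.12 in M-BM (adjusted p = 4.87e-04). ADAM17, the sheddase of TNF and of EGF receptor ligands, was not called, with 86.9, 96.01, 85.9 and 94.4 in M-BM, 83.1, 89.5, 69.9 and 86.5 in Lat and 109, 105, 72.95 and 79.6 in S-BM. S-BM 3 and S-BM 4 were its lowest S-BM libraries, and without them ADAM17 was called lower in Lat (−0.38, adjusted p = 0.0156). ADAM17 shares 1257 exon bases with IAH1 on the opposite strand, a gene with values of 18.4 to 34.1, and the library kit does not keep the strand, so part of its reads may be IAH1 reads.

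ADAM15, a membrane protease with an integrin-binding site, had 92.4, 164, 108 and 122 in M-BM, 126, 106, 57.6 and 158 in Lat and 193, 183, 187 and 201 in S-BM. All M-BM and Lat libraries were below S-BM, with Lat 3 the lowest. It fell in Lat (−0.86 ± 0.24, limma adjusted p = 0.00757) and in M-BM (−0.68 ± 0.24, adjusted p = 0.0302). In M-BM the call held in 16 of 23 alternatives (adjusted p 0.00310 to 0.108); it ended without the S-BM pair 3/4, without M-BM 1 or M-BM 3, without S-BM 1, S-BM 3 or S-BM 4 alone, and with no filter.

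ADAM19, or meltrin beta, a sheddase of neuregulin, had 11.2, 10.03, 24.04 and 26.2 in M-BM, 22.5, 21.9, 50.7 and 37.7 in Lat and 35.9, 52.1, 49.7 and 52.6 in S-BM. Lat 3 and Lat 4 lay within the range of S-BM and the M-BM libraries lay below it. It fell in M-BM (−1.47 ± 0.31, limma adjusted p = 0.00151) and was not called in Lat (−0.58 ± 0.31, adjusted p = 0.128), though it was called without Lat 3 (−0.80, adjusted p = 0.0405) and with the replicate numbers as a block (adjusted p = 0.0250). ADAM9, with means of 508 ± 50.5 in M-BM, 453 ± 66.5 in Lat and 467 ± 36.3 in S-BM, was not called in any contrast.

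Of the low ADAM genes, ADAM23, an ADAM without catalytic activity that binds LGI1 in neurons, had 1.67, 2.304, 1.51 and 1.81 in M-BM, 2.67, 2.33, 2.23 and 1.88 in Lat and 0.171, 0.152, 0.150 and 0 in S-BM. In the fit with the filter at 1 it rose in Lat (1.55 ± 0.14, limma adjusted p = 1.32e-06) and in M-BM (1.33 ± 0.14, adjusted p = 9.14e-06). ADAM23 met that filter through M-BM and Lat alone, where it was high, so its calls are no support. ADAM32 ran from 1.898 to 2.41 in M-BM, 2.26 to 2.99 in Lat and 1.52 to 2.39 in S-BM and was called higher in Lat by 0.35 (adjusted p = 0.0394), with adjusted p of 0.0240 to 0.102 over the alternatives and 9 of 20 calling it; leaving out Lat 2, Lat 3, Lat 4, M-BM 3, S-BM 1, S-BM 2 or S-BM 3 ended the call. ADAM8, a sheddase of white blood cells, had means of 1.42 ± 0.578 in M-BM, 1.14 ± 0.283 in Lat and 0.801 ± 0.334 in S-BM, and was not called. ADAM11 (1.07 ± 0.238 in M-BM, 1.01 ± 0.202 in Lat, 0.699 ± 0.353 in S-BM) and ADAM22 (2.59 ± 0.830 in M-BM, 2.13 ± 0.526 in Lat, 2.64 ± 2.49 in S-BM), both without catalytic activity, were not called either. S-BM 2 held 6.38 for ADAM22, well above the other S-BM values of 1.28 to 1.48, and without S-BM 2 ADAM22 was called higher in M-BM (0.56, adjusted p = 0.0347).

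ADAMTS6 was the ADAMTS gene that rose most. This secreted protease, known for its role in heart and skeletal development in mice, had 15.3, 5.69, 9.24 and 5.95 in M-BM, 14.3, 15.1, 14.1 and 10.7 in Lat and 0.399, 0.557, 1.87 and 1.51 in S-BM. No M-BM or Lat library overlapped S-BM. The log2 fold change was 2.86 ± 0.30 in Lat (limma adjusted p = 3.90e-06) and 2.24 ± 0.30 in M-BM (adjusted p = 4.84e-05), with 1.61 to 3.68 and 1.16 to 3.08 over the alternatives. ADAMTS6 met the filter through Lat, where it was high, and the M-BM library at 15.3 was the only other to reach the filter value. Its Lat call is therefore no support.

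ADAMTS15, an aggrecan- and versican-cleaving protease, had 14.5, 8.13, 6.67 and 5.803 in M-BM, 9.09, 9.19, 16.3 and 9.28 in Lat and 8.204, 11.3, 26.7 and 32.2 in S-BM. S-BM 3 and S-BM 4 were the highest of all libraries. It was called lower in M-BM (−0.95 ± 0.38, limma adjusted p = 0.0464), a call that held in 11 of 23 alternatives. Without the S-BM pair 3/4 the value was −0.20 (adjusted p = 0.637), and the call also ended on leaving out S-BM 3 or S-BM 4 alone, M-BM 2, M-BM 3 or M-BM 4, or Lat 1, Lat 2 or Lat 4. It ended as well with no filter (adjusted p = 0.0844), with M-BM and S-BM fitted alone (0.0750) and with the replicate numbers as a block (0.0588). In Lat it was not called (−0.63 ± 0.38, adjusted p = 0.166), but it was without S-BM 1 (−0.95, adjusted p = 0.0344).

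ADAMTS16 was not called, with 5.83 to 15.3 in M-BM, 3.68 to 10.6 in Lat and 6.67 to 12.9 in S-BM. In the fit with the filter at 1, ADAMTS9, a protease of aggrecan and versican, fell in Lat (−1.02, limma adjusted p = 0.00938) and in M-BM (−0.92, adjusted p = 0.0192); its values were 3.89, 1.08, 1.17 and 1.76 in M-BM, 1.49, 0.941, 3.11 and 1.33 in Lat and 4.84, 6.53, 2.85 and 3.67 in S-BM. The M-BM call of ADAMTS9 ended without M-BM 2 (adjusted p = 0.0586), M-BM 3 (0.0607) or S-BM 2 (0.0577). ADAMTS3, a procollagen protease, rose in Lat (0.67, adjusted p = 0.0164) and in M-BM (0.62, adjusted p = 0.0269), with means of 2.62 ± 1.39 in M-BM, 2.58 ± 0.423 in Lat and 1.25 ± 0.283 in S-BM. The M-BM call of ADAMTS3 held in 15 of 20 alternatives and ended without M-BM 2, S-BM 1 or S-BM 4, and without the S-BM pair 3/4 together (adjusted p = 0.0583). ADAMTS1, a matrix protease, stayed at or below 2.21 and ADAMTS14, a procollagen protease, at or below 1.63 in every library, and neither reached 1 in enough libraries for a test.

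Of the 11 tested cathepsins, 6 were lower and 2 higher in Lat than in S-BM (median log2 fold change −0.41), where 29.4% of all genes were lower and 30.2% higher. In M-BM 6 were lower and none higher (median −0.41), where 25.8% of all genes were lower and 26.9% higher. The family was not tested against all genes. CTSS, a cysteine protease known for antigen processing in immune cells, had 13.3, 32.98, 13.3 and 22.5 in M-BM, 11.6, 12.2, 23.5 and 15.2 in Lat and 40.9, 48.98, 47.7 and 50.05 in S-BM. All M-BM and Lat libraries were below S-BM, M-BM overlapped Lat, and M-BM 2 and Lat 3 were the highest of their groups. CTSS fell in Lat (−1.57 ± 0.26, limma adjusted p = 1.64e-04) and in M-BM (−1.25 ± 0.26, adjusted p = 0.00132).

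CTSC, or dipeptidyl peptidase 1, which activates granule serine proteases in white blood cells, had 64.7, 74.1, 88.5 and 130.2 in M-BM, 87.4, 88.8, 156 and 80.9 in Lat and 233, 269, 246 and 245 in S-BM. Lat 3 was far above the other Lat libraries and still below S-BM. CTSC fell in Lat (−1.31 ± 0.21, limma adjusted p = 1.39e-04) and in M-BM (−1.51 ± 0.21, adjusted p = 6.66e-05). CTSH, an aminopeptidase cathepsin, had 97.3, 90.8, 109.8 and 113 in M-BM, 75.5, 68.9, 59.2 and 76.4 in Lat and 157, 222, 221 and 216 in S-BM, with S-BM 1 the lowest of its group. Its log2 fold change was −1.52 ± 0.13 in Lat (adjusted p = 7.71e-07) and −0.97 ± 0.13 in M-BM (adjusted p = 3.69e-05).

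CTSD had 182, 187, 166 and 168 in M-BM, 159, 136, 168 and 192 in Lat and 314, 283, 325 and 345 in S-BM, 3 groups of narrow spread in which S-BM stood alone. It fell in Lat (−0.95 ± 0.11, limma adjusted p = 5.48e-06) and in M-BM (−0.84 ± 0.11, adjusted p = 2.96e-05). CTSA, the carboxypeptidase that protects lysosomal sialidase and beta-galactosidase, had 78.8, 65.1, 80.04 and 85.95 in M-BM, 70.5, 65.5, 111 and 74.1 in Lat and 137, 112, 133 and 124 in S-BM; Lat 3 came within 1 unit of the lowest S-BM library. CTSA fell in Lat (−0.67 ± 0.15, adjusted p = 0.00135) and in M-BM (−0.70 ± 0.15, adjusted p = 0.00134). CTSA overlaps exons of NEURL2 and PLTP on the opposite strand, both at or below 1.14 in every library. CTSD shares 1166 of its 2123 exon bases with AC068580.4 on the same strand. That gene has no values here, and how reads from the shared bases were counted is not known.

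CTSB and CTSZ fell in 1 contrast each. CTSB, a widely made lysosomal cysteine protease, had 216, 218, 221 and 192 in M-BM, 144, 139, 176 and 149.7 in Lat and 155, 192, 237 and 234 in S-BM; the first S-BM library lay among the Lat values. It was lower in Lat (−0.41 ± 0.13, limma adjusted p = 0.0136), a call that ended without the S-BM pair 3/4 (−0.19, adjusted p = 0.232), and it was not called in M-BM (0.07 ± 0.13). CTSZ had means of 178 ± 17.9 in M-BM, 206 ± 13.5 in Lat and 238 ± 32.1 in S-BM. It was lower in M-BM (−0.41 ± 0.11, adjusted p = 0.00552), which also ended without the S-BM pair 3/4 (−0.26, adjusted p = 0.0839).

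The cathepsins that rose did so in Lat. CTSL1 and CTSL2 are the names the tables use for CTSL, a broad lysosomal protease, and CTSV, its close relative of thymus and testis; reads from matching stretches of this pair could have been assigned to either. CTSL1 had 101, 89.9, 99.7 and 94.9 in M-BM, 104, 107, 116 and 129.7 in Lat and 104, 85.2, 86.7 and 87.3 in S-BM, with S-BM 1 at the lower edge of Lat. It rose in Lat by 0.33 ± 0.10 (limma adjusted p = 0.00911; 0.27 and adjusted p = 0.0783 without the S-BM pair 3/4). CTSL2 had 19.01, 26.6, 22.6 and 22.3 in M-BM, 29.5, 28.6, 42.9 and 29.8 in Lat and 17.7, 24.1, 21.6 and 24.4 in S-BM, Lat 3 being far the highest, and rose in Lat by 0.55 ± 0.15 (adjusted p = 0.00617). CTSF, CTSO and CTSK were not called. CTSF had means of 11.7 ± 2.96 in M-BM, 12.6 ± 1.38 in Lat and 14.2 ± 3.29 in S-BM, CTSO had 15.5 ± 2.28, 14.5 ± 2.51 and 15.8 ± 4.29 in the same order, and CTSK, the collagen-cleaving cathepsin of osteoclasts, had 2.36 ± 1.02, 2.48 ± 0.769 and 3.41 ± 2.18.

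Promoters of 2 cathepsins that fell and of ADAMTS6, which rose, are printed because each holds CACGTG, the core of the CLEAR element through which TFEB and related factors act on lysosomal genes. Each line holds the 250 bases before the RefSeq start (GRCh38.p14), CTSD from the minus strand at chr11:1763928-1764177, CTSA from the plus strand at chr20:45891085-45891334 and ADAMTS6 from the minus strand at chr5:65481921-65482170. Capitals mark CACGTG and GGGCGG, the GC box, or its complement; where GC boxes overlap they run together.
CTSD: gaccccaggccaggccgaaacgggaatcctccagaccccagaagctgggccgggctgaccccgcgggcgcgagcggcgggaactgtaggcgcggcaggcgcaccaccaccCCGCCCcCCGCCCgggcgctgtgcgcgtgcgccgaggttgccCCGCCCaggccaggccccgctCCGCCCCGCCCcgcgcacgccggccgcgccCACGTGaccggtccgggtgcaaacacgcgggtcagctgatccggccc
CTSA: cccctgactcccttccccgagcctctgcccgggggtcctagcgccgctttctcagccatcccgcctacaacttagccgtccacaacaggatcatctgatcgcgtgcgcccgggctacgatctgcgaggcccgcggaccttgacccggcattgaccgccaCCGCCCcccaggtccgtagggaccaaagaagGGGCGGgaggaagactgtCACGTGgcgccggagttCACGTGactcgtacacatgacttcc
ADAMTS6: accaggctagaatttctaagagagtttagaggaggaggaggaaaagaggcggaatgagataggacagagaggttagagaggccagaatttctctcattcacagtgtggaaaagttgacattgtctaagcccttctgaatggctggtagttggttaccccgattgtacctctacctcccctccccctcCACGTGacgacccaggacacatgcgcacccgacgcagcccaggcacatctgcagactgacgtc
CACGTG, searched on both strands, stood 47 bases before the start of CTSD, 42 and 25 bases before that of CTSA and 63 bases before that of ADAMTS6. Among the 25 members with an entry, 5 held it (ADAM10, ADAMTS6, CTSA, CTSD and CTSF), as did 6.34% of the 35116 windows. GGGCGG was held by 21 of the 25 and by 42.6% of all windows. The members with CACGTG included ones that fell, 1 that rose and 1 that was not called, and nothing follows from these letters about a factor.

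TIMP1 rose in M-BM and in Lat, relative to S-BM. This secreted inhibitor of most MMPs had 45.8, 43.3, 60.04 and 47.2 in M-BM, 55.4, 50.3, 63.2 and 56.3 in Lat and 31.2, 21.8, 35.3 and 31.7 in S-BM. The groups did not overlap S-BM, and the log2 fold change was 0.90 ± 0.14 in Lat (limma adjusted p = 1.14e-04) and 0.70 ± 0.14 in M-BM (adjusted p = 0.00110). TIMP2, which also takes part in the activation of MMP2 by MMP14, had 180.2, 175, 179 and 164 in M-BM, 197, 208, 263 and 226 in Lat and 174, 206, 132 and 131 in S-BM, where S-BM 3 and S-BM 4 were the low pair. It was called higher in Lat (0.49 ± 0.14, adjusted p = 0.00763), but not without the S-BM pair 3/4 (0.23, adjusted p = 0.147).

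TIMP3, the matrix-bound TIMP that also blocks ADAM17 and several ADAMTS enzymes, was measured above the floor of 3 reads mainly in M-BM. It had 0.0492, 11.3, 10.3 and 8.37 in M-BM 1 to 4, 0.205, 0.0554, 0.0518 and 0.209 in Lat, 0 in all 4 S-BM libraries, and 0.0662, 0.562 and 0.328 in Pa. M-BM 2, M-BM 3 and M-BM 4 were high, and M-BM 1, at 1 read, was not. Only 3 libraries reached 1, so no test at these filters covered it.

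Over all genes, 14 of 9646 were called in M-BM against Lat. No member was called in M-BM against Lat, where 0.145% of all tested genes were (0.0933% higher and 0.0518% lower). On the recovered reads edgeR called 0 (0.124% of all genes), and DESeq2 called 2, CTSH and MMP14 (1.46% of all genes). At an unadjusted limma p under 0.05 there were 8 of 26. No count over all genes stands beside them, so nothing follows from this number about the members. With the filter at 1, limma called 0 of 41 members (0.202% of all genes, 0.109% higher and 0.0933% lower). For 7 of 26 members M-BM and Lat shared no range of values, beside 7.3% of all genes.

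MMP14 had the largest of these differences. As listed above, its lowest M-BM value, 10.6, stood above the highest Lat value, 7.39. The log2 difference was 1.44 ± 0.37 (limma adjusted p = 0.180; DESeq2 adjusted p = 0.0161). CTSH (0.55 ± 0.13, limma adjusted p = 0.137; DESeq2 adjusted p = 0.00963) and CTSB (0.48 ± 0.13, limma adjusted p = 0.182) were higher in each M-BM library than in each Lat library. In CTSL2 (−0.503 ± 0.15), TIMP2 (−0.35 ± 0.14), CTSL1 (−0.24 ± 0.10) and CTSZ (−0.22 ± 0.11) each M-BM library was below each Lat library, with limma adjusted p of 0.222, 0.380, 0.381 and 0.486. An adjusted p above the threshold does not show that the 2 groups were alike.

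Levels in the parental line were set beside those of the other 3 groups without a test. Pa was scaled by a factor of 1.0266, taken from the median of 8021 genes, and a member counted as outside the Pa range when every library of a group was at least 2-fold above or below every Pa library on value + 1. In M-BM 15 of 44 members were outside, 5 higher (4.02% of all genes) and 10 lower (6.39%). In Lat 14 were outside, 4 higher (5.41% of all genes) and 10 lower (9.16%). In S-BM 3 were outside, 1 higher (0.379%) and 2 lower (1.11%). For both directions together, the share of all genes outside was 10.4% for M-BM, 14.6% for Lat and 1.49% for S-BM. The S-BM count came to 7 without S-BM 2, with no count over all genes beside it.

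**Figure D4:**
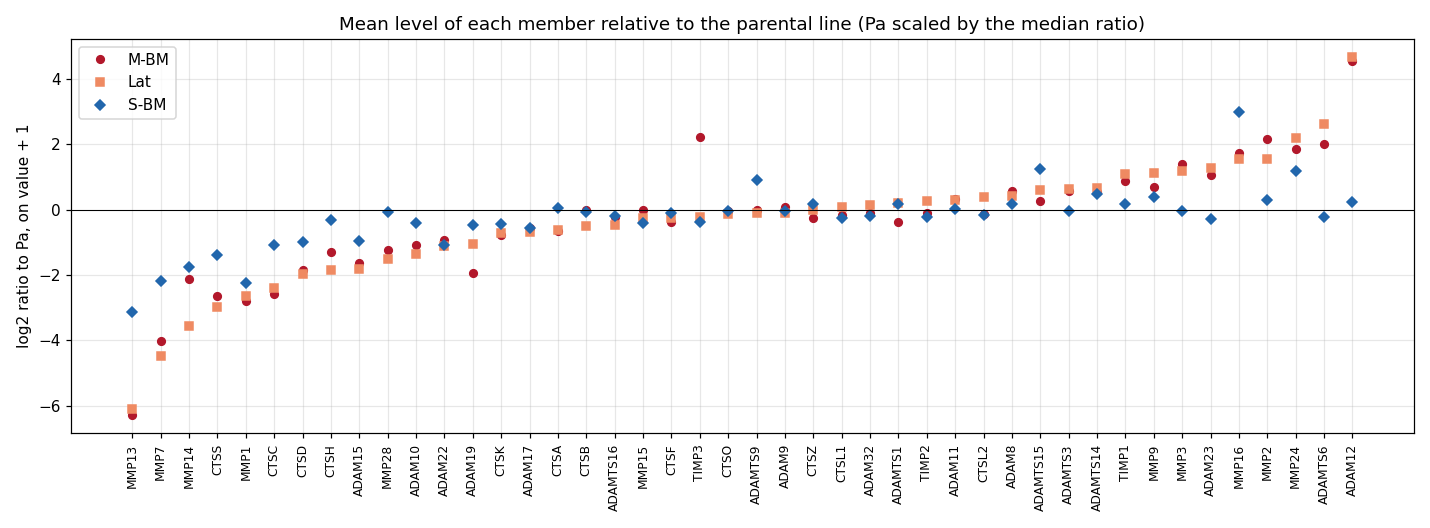
Each of the 44 members is placed on the horizontal axis in the order of its Lat to Pa ratio, and the vertical axis gives the log2 ratio of the mean of log2(value + 1) in M-BM, Lat and S-BM over Pa, with Pa scaled by 1.0266. MMP13 and MMP7 are at the low end and ADAM12 at the high end for M-BM and Lat, while most S-BM ratios are closer to 0.

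The members that stood highest in Pa included MMPs and cathepsins. MMP13 had 245, 133 and 544 in Pa 1 to 3 as deposited, with Pa 3 the highest, and its scaled Pa mean was 315 ± 218 (SD, n = 3). Its ratio to Pa on log2(value + 1) was −6.30 in M-BM, −6.10 in Lat and −3.13 in S-BM. MMP7 had 100.2, 108 and 189 in Pa, and ratios of −4.01 in M-BM, −4.49 in Lat and −2.19 in S-BM. MMP14 had 56.7, 54.2 and 67.9 in Pa, with ratios of −2.13, −3.58 and −1.76 in M-BM, Lat and S-BM. MMP1 reached at most 2.58 in any M-BM, Lat or S-BM library and had 11.8, 4.93 and 19.5 in Pa.

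Several cathepsins were also highest in Pa. CTSS had 109, 115 and 143 in Pa, and its ratio was −2.64 in M-BM, −2.97 in Lat and −1.40 in S-BM; with MMP13 it was 1 of the 2 members below the Pa range in S-BM. CTSC had 511, 478 and 551 in Pa, with ratios of −2.60, −2.39 and −1.08 in M-BM, Lat and S-BM. CTSD had 580.1, 681 and 594 in Pa, with ratios of −1.84, −1.96 and −1.002. CTSH and ADAM15 were also below the Pa range in M-BM and Lat, ADAM19 in M-BM (−1.93) and ADAM10 in Lat (−1.36).

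Members above the Pa range in M-BM and in Lat were ADAM12, ADAMTS6, MMP16 and MMP24. ADAM12 had 0.0662, 0.0625 and 0.109 in Pa, which is 1 or 2 reads a library, and log2 ratios of 4.54 in M-BM and 4.67 in Lat on value + 1. MMP2 was above the range in M-BM (2.17), with 5.95, 10.1 and 13.6 in Pa. MMP16 had 0.265, 0.125 and 0.546 in Pa and was the 1 member above the Pa range in S-BM (2.99), as well as in M-BM (1.73) and Lat (1.54). TIMP1 had 26.002, 28.9 and 21.9 in Pa and was higher in each M-BM and Lat library without reaching the 2-fold margin in all of them.

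Other genes of the same pathways were counted from lists of known inhibitors, substrates, partners and lysosomal genes. The counts stand beside all tested genes, of which 29.4% were lower and 30.2% higher in Lat (median 0.01) and 25.8% lower and 26.9% higher in M-BM (median 0.01), and no list was tested against all genes. Of 31 tested lysosome genes other than cathepsins, 21 fell and 4 rose in Lat against S-BM (median log2 fold change −0.47), and 20 fell and 4 rose in M-BM (median −0.41). SORT1, which carries enzymes to the lysosome, fell (−1.52 ± 0.18 in Lat, −1.37 ± 0.18 in M-BM). GNPTG, a subunit of the enzyme that makes the mannose 6-phosphate tag, had means of 6.002 ± 0.548 in M-BM, 4.81 ± 0.528 in Lat and 13.8 ± 0.730 in S-BM (SD, n = 4 each). It passed the filter through S-BM alone, so it had to differ and its call, which the counts above include, is no support. LIPA, the lysosomal acid lipase, fell (−1.31 ± 0.17 in Lat, −1.01 ± 0.17 in M-BM). Those that rose were TFEB, TFE3 and M6PR in both contrasts, ATP6V0A1 in Lat and NPC1 in M-BM. TFEB (1.04 ± 0.24 in Lat, 1.01 ± 0.24 in M-BM) and TFE3 (0.84 ± 0.11 in Lat, 0.69 ± 0.11 in M-BM) are transcription factors of lysosomal genes. TFEB passed the filter through M-BM and Lat alone, where it was high. Its calls, included in the counts above, are therefore no support.

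Cathepsin inhibitors were few: of 4 tested, 1 rose and 2 fell in each contrast with S-BM. CSTB, or stefin B, fell (−0.80 ± 0.13 in Lat, −0.63 ± 0.13 in M-BM), as did SERPINB1 (−0.79 ± 0.16 in Lat, −0.64 ± 0.16 in M-BM). CST6, or cystatin E/M, rose in Lat (1.11 ± 0.32, limma adjusted p = 0.00905) and in M-BM (0.87 ± 0.32, adjusted p = 0.0367); the M-BM call ended without M-BM 1 (adjusted p = 0.103), M-BM 2 (0.112), S-BM 1 (0.0585) or S-BM 2 (0.109), with the replicate numbers as a block (0.0539), with no filter (0.0684) and with M-BM and S-BM fitted alone (0.0697).

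Of 8 tested genes of plasminogen activation, 4 rose and 2 fell in Lat and likewise in M-BM. PLAT, the tissue plasminogen activator, had means of 24.9 ± 18.1 in M-BM, 8.55 ± 0.699 in Lat and 263 ± 161 in S-BM, and fell, with a log2 fold change of −4.55 ± 0.47 in Lat (limma adjusted p = 3.44e-06) and −3.37 ± 0.47 in M-BM (adjusted p = 6.30e-05). Without the S-BM pair 3/4 these were −3.70 and −2.52. SERPINE2, or protease nexin 1, a serpin that blocks thrombin and urokinase, rose (1.67 ± 0.14 in Lat, 1.12 ± 0.14 in M-BM). SERPINB2, a serpin that blocks plasminogen activators, was called lower (−2.05 ± 0.65 in Lat, −2.07 ± 0.65 in M-BM), calls that ended without the S-BM pair 3/4 (adjusted p = 0.119 in Lat and 0.125 in M-BM). The Lat call also ended by edgeR (0.0813) and DESeq2 (0.114), the M-BM call ended without M-BM 2 (0.0531), and the Lat value was −2.74 without Lat 3.

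Of 7 tested metalloproteinase inhibitors and partners, 3 rose and 2 fell in Lat, and 4 rose and 1 fell in M-BM. TFPI2, a protease inhibitor of the matrix, had means of 19.8 ± 20.03 in M-BM, 40.9 ± 26.5 in Lat and 0.188 ± 0.218 in S-BM, and rose (4.74 ± 0.75 in Lat, limma adjusted p = 1.10e-04; 3.52 ± 0.75 in M-BM, adjusted p = 0.00145). Its values were 5.47 in Lat without Lat 3 and 2.92 in M-BM without M-BM 2. TFPI2 passed the filter through M-BM and Lat alone, where it was high. Its calls, included in the counts above, are therefore no support. SPOCK1, or testican 1, rose by 1.88 ± 0.27 in Lat and 1.53 ± 0.27 in M-BM, and THBS1, a matrix protein that binds MMP2, by 1.90 ± 0.36 in Lat and 1.17 ± 0.36 in M-BM (2.49 and 1.77 without the S-BM pair 3/4). The others called were BSG and ITGAV, lower in Lat, and in M-BM LCN2, higher, and ITGAV, lower.

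Among sheddase partners, of 8 tested convertases and partners, 4 fell (PCSK7, RHBDF1, TSPAN15 and TSPAN17) and 1 rose in Lat and likewise in M-BM. TSPAN15, the tetraspanin that directs ADAM10 to N-cadherin, fell (−1.07 ± 0.12 in Lat, −1.08 ± 0.12 in M-BM). RHBDF1, an iRhom that escorts ADAM17, had means of 7.32 ± 1.77 in M-BM, 7.64 ± 1.94 in Lat and 14.7 ± 0.353 in S-BM. RHBDF1 also passed the filter through S-BM alone, so its call, included in the counts above, is no support. FURIN, which cuts the precursors of ADAMs and membrane-type MMPs, rose (0.53 ± 0.13 in Lat, 0.40 ± 0.13 in M-BM); its M-BM call ended without M-BM 1 (adjusted p = 0.0525), M-BM 3 (0.0508) or S-BM 2 (0.0511). Of 21 tested sheddase substrates, 13 fell and 4 rose in Lat (median −0.44), and 10 fell and 2 rose in M-BM (median −0.38). NOTCH3, a Notch receptor, had means of 21.5 ± 4.995 in M-BM, 14.5 ± 1.48 in Lat and 81.5 ± 22.6 in S-BM, and fell (−2.38 ± 0.18 in Lat, −1.86 ± 0.18 in M-BM). DSG2, a desmosomal cadherin, fell (−1.58 ± 0.24 in Lat, −0.97 ± 0.24 in M-BM), and IL6R, the interleukin 6 receptor, rose (1.36 ± 0.21 in Lat, 0.89 ± 0.21 in M-BM). The others that rose were SDC4 in both contrasts and EPGN and L1CAM in Lat. EPGN passed the filter through M-BM and Lat alone, so its call, included in the counts above, is no support.

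**Figure D5:**
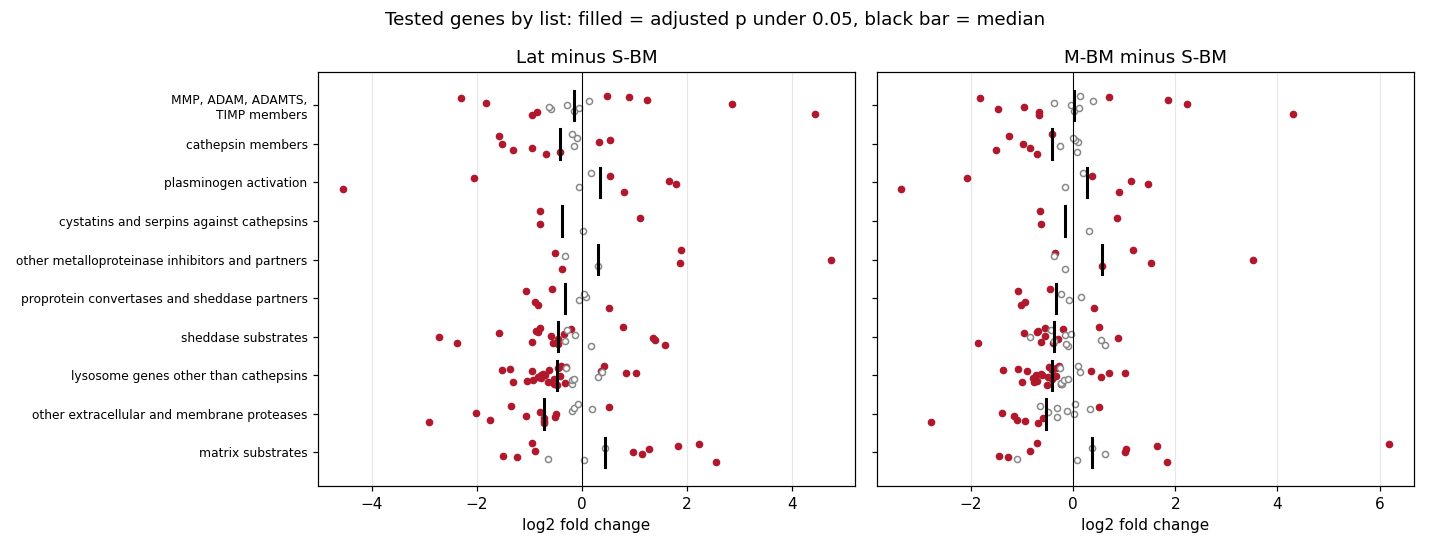
Each point is a tested gene, by list from top to bottom, with its log2 fold change against S-BM on the horizontal axis, filled where the limma adjusted p was under 0.05 and with a bar at the list's median. The medians of lysosome genes (−0.47 in Lat, −0.41 in M-BM) and of other proteases (−0.71 in Lat, −0.54 in M-BM) lie below 0, and that of matrix substrates (0.45 in Lat, 0.38 in M-BM) lies above it.

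Of 16 tested proteases of other families, 11 fell and 1 rose in Lat (median −0.71), and 7 fell and 1 rose in M-BM (median −0.54). TMPRSS4, a membrane serine protease, had means of 11.4 ± 7.498 in M-BM, 9.47 ± 3.85 in Lat and 75.5 ± 20.8 in S-BM, and fell (−2.90 ± 0.36 in Lat, −2.78 ± 0.36 in M-BM). FAP, a membrane dipeptidyl peptidase, fell (−1.75 ± 0.27 in Lat, −1.11 ± 0.27 in M-BM). KLK7, a kallikrein of skin, had means of 5.65 ± 1.53 in M-BM, 3.405 ± 1.06 in Lat and 16.4 ± 2.83 in S-BM. KLK7 passed the filter through S-BM alone, so its call, included in the counts above, is no support. NLN, an intracellular metallopeptidase, rose (0.52 ± 0.08 in Lat, 0.51 ± 0.08 in M-BM).

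Of 13 tested matrix substrates, 6 rose and 4 fell in Lat, and 5 rose and 4 fell in M-BM. The 4 that fell were COL5A1, COL12A1, LAMA5 and AGRN in both, and FN1, LAMA3, LAMB3, TNC and SPARC rose in both. FN1, or fibronectin, had means of 1468 ± 302 in M-BM, 2626 ± 1552 in Lat and 411 ± 96.05 in S-BM, and rose by 2.55 ± 0.28 in Lat and 1.84 ± 0.28 in M-BM. TNC, or tenascin C, rose by 1.83 ± 0.22 in Lat and 1.64 ± 0.22 in M-BM. COL12A1, a fibril-associated collagen, fell (−1.497 ± 0.21 in Lat, −1.45 ± 0.21 in M-BM). SPARC, a collagen-binding matrix protein, had means of 114 ± 51.8 in M-BM, 12.6 ± 19.6 in Lat and 0.499 ± 0.377 in S-BM. Its values ran from 67.2 to 186 in M-BM, 2.22 to 41.9 in Lat and 0.285 to 1.06 in S-BM. SPARC met the filter through M-BM, where it was high, so its M-BM calls are no support. It was the 1 listed gene called in M-BM against Lat (3.96 ± 0.63, limma adjusted p = 0.0270); that call held in 12 of 23 alternatives. It ended without Lat 1 (adjusted p = 0.115), Lat 2 (0.117), Lat 4 (0.0721), M-BM 2 (0.0799), M-BM 3 (0.0752), M-BM 4 (0.0600) or S-BM 3 and S-BM 4 together (0.0516), by edgeR (0.181) and DESeq2 (0.0508), with no filter (0.0501) and with M-BM and Lat fitted alone (0.0798), and the value was 4.84 without Lat 3. Relative to S-BM, SPARC rose in Lat (2.23 ± 0.63, 1.35 without Lat 3, and not called with a pseudocount of 5, adjusted p = 0.0502) and in M-BM (6.19 ± 0.63).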

How the data were processed

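RNA was measured in 15 libraries of 4 groups. The deposited signal values are normalized counts that the authors made by a scaling not given in the sources used here; M-BM, Lat and S-BM share a table and Pa has its own. The submitters' processing notes name Bowtie 0.12.2 and the build GRCh38, and libraries were made from total RNA with TruSeq RNA v2, which does not keep the strand, per the labels' protocols. Those sources name neither a read counter nor an annotation. All values in a column were whole multiples of 1 step within 0.05 reads (100% of values), so reads were recovered, and 13253870 to 21843860 reads a library set the precision. The tables list 19845 names, 27 of them turned into dates by a spreadsheet. All 44 members matched a RefSeq gene table of GRCh38.p14; CTSL1 and CTSL2 matched as synonyms of CTSL and CTSV. Exon lengths are merged exons of the reference annotation.

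Groups came from the labels. The members, gene lists and tests were chosen with earlier results of these data known. The tests of M-BM, Lat and S-BM came from 1 fit of log2(value + 1) in limma 3.58.1 (R 4.3.3), with a variance trend and 9 residual degrees of freedom; genes needed a value of at least 10 in 4 libraries, tests were two-sided, and p-values were Benjamini-Hochberg adjusted with a threshold of 0.05. Alternatives were other pseudocounts and filters, quantile and TMM scaling, 2-group fits, edgeR 4.0.16 and DESeq2 1.42.0 on recovered reads, a replicate block, and leaving out libraries; alternatives at the filter of 1 were added after the data were seen. Scripts were tested on simulated data. Residuals of libraries with the same replicate number correlated at −0.272 to 0.319, 4 of 12 pairs above 0.1, so the numbers were not used as pairs. Named members were a preset list of well-known enzymes and inhibitors plus the 8 called members with the largest change in each direction; members below the filter with a group mean of at least 3 were given as values, with tests at a filter of 1. Of each gene list, up to 3 called genes with the largest change in a contrast were eligible. ADAM11, ADAM23, ADAM32, ADAMTS3, ADAMTS14, ADAMTS16, CTSF, CTSO and MMP3 fall outside that rule and were named so that every member is accounted for. Beyond it, SERPINE2, TFEB, TFE3, FURIN, NLN, COL12A1 and the genes listed by name alone were named after their values were seen. A gene of the plasminogen list is not reported here by name.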

Additional observations from a re-analysis of the deposited data

Results flagged for a closer look

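Of 105 groups of 4 libraries examined (35 members, each in M-BM, Lat and S-BM), 11 held a library whose gap to the nearest other library, divided by the range of the group, was above Dixon's 95% critical value for 4 samples; chance gives about 1 in 20 groups. Lat 3 stood apart for 4 members. It had the lowest ADAM12 value of its group, 21.6, against 28.08 to 29.01 in the others. It had the highest ADAMTS15 value, 16.3, against 9.09 to 9.28, the highest CTSC value, 156, against 80.9 to 88.8, and the highest CTSL2 value, 42.9, against 28.6 to 29.9. S-BM 2 stood apart for 3 members: MMP7 at 59.8, against 20.4 to 22.3, ADAM10 at 424, against 329 to 343, and ADAM22 at 6.38, against 1.28 to 1.48. S-BM 1 had the lowest CTSH value, 157.5, against 216 to 222, and the highest CTSL1 value, 104, against 85.2 to 87.4. In M-BM, M-BM 4 had the lowest CTSB value, 192, against 216 to 221, and M-BM 2 the lowest MMP1 value, 0.226, against 0.876 to 0.951.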

How the results depend on the processing

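The count of members called in Lat against S-BM was 17 and came to 27 with the filter at 1 and to 27 with no filter. In M-BM against S-BM it was 15 and came to 24 with the filter at 1. In M-BM against Lat it was 0, and 2 by DESeq2 (1.46% of all genes). With a fold of at least 4 in place of 2, members outside the Pa range came to 3 in M-BM, 6 in Lat and 1 in S-BM. These stand with no count over all genes beside them. Leaving out 1 library at a time, the calls ran from 17 to 18 in Lat against S-BM, from 13 to 15 in M-BM against S-BM and from 0 to 0 in M-BM against Lat, and the members outside the Pa range from 15 to 16 in M-BM, 14 to 17 in Lat and 3 to 7 in S-BM. With the replicate number as a block the calls came to 18, 14 and 0; the samples share only a number. Every other alternative gave counts within 1.5 times these.

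No called result turned its sign. Uncalled values near 0 did. In Lat against S-BM, ADAM9 was 0.0604 without Lat 3 and 0.0443 without S-BM 3 and 4, ADAMTS15 0.128 and MMP15 −0.174 without S-BM 3 and 4, and MMP15 −0.0084 without Lat 4 and −0.0262 without S-BM 3. At the filter of 1, CTSK was 0.0436 without S-BM 2, and ADAM22 0.0035 with a pseudocount of 0.25, 0.0779 without Lat 3 and 0.371 without S-BM 2. In M-BM against S-BM, ADAM17 was −0.0241 by edgeR, −0.0296 by DESeq2, −0.0197 without M-BM 2, −0.0115 without M-BM 4, −0.0934 without S-BM 3, −0.0520 without S-BM 4 and −0.233 without both. CTSB was −0.0588 without S-BM 1, CTSL2 −0.0353 without M-BM 2 and −0.0533 without S-BM 1, and without S-BM 3 and 4 MMP14 was 0.391 and TIMP2 −0.1196. At the filter of 1, ADAM22 was −0.0410 by edgeR, −0.0402 by DESeq2, −0.0087 without S-BM 4 and −0.282 without S-BM 3 and 4. In M-BM against Lat, ADAM12 was 0.0106 without M-BM 4, CTSA 0.0532 without M-BM 2, and without Lat 3 ADAM15 was −0.104, CTSA 0.139 and CTSC 0.0101. At the filter of 1, CTSK was 0.0161 without Lat 2, 0.0204 without Lat 4 and 0.129 without M-BM 1, MMP1 0.0027 without M-BM 2, MMP13 0.0917 without M-BM 1, and ADAMTS9 −0.0410 without Lat 2 and −0.169 without M-BM 1. Leaving out 1 library at a time, the far ends for these were −0.100 for ADAM9 and 0.276 for MMP15 in Lat against S-BM, 0.0962 for ADAM17, 0.146 for CTSB and 0.1196 for CTSL2 in M-BM against S-BM, and −0.256 for ADAM12, 0.374 for ADAM15, −0.113 for CTSA and −0.400 for CTSC in M-BM against Lat. The cause of these changes was not tested. Values below the floor of 3 reads, 0.136 to 0.225, cannot be told from 0.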
